A study of Mus musculus with 12 samples.

Results

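Expression of 10 hypothalamic nucleus transcription factor genes, Tbx3, Nr5a1, Fezf1, Otp, Sim1, Nkx2-1, Isl1, Six3, Six6 and Sox14, was examined in the adult mouse hypothalamus. The genes were chosen by name as regulators of the ventromedial, arcuate and paraventricular nuclei and of the hypothalamus in general, and they make up 10 of the 17186 genes tested. Earlier results of these data were known when they were chosen. Counts of members set beside shares of all genes are therefore descriptions only. Each had 1 probe set in the platform annotation, and all 10 passed the filter on low signals, which asked for a log2 signal of 6 or more on 3 or more arrays. The samples were male C57Bl/6J mice killed at 21 weeks of age, in 4 groups with 3 arrays each. ASP mice were exposed to aspartame (46 mg/kg of body weight) in the drinking water, through the mother before birth and then for life. CGP mice were exposed to CGP 39551, which competes with glutamate at NMDA receptors (NMDAR), given to the mothers at 5 mg/kg until postnatal day 28. ASP+CGP mice received both, and control mice (CON) received neither. RNA was combined across the mice of each group ahead of hybridization, which makes the 3 arrays of a group repeats of 1 pool, and p-values measure the spread between arrays and not between mice. Differences between treatments and any other differences between the 4 pools cannot be told apart.

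The hypothalamus is a set of nuclei whose neurons differ in the hormones and peptides they make, and transcription factors like these set up and keep those identities. Nr5a1 (steroidogenic factor 1) and the zinc finger repressor Fezf1 mark neurons of the ventromedial nucleus, which takes part in energy balance. The bHLH-PAS factor Sim1 and the homeodomain factor Otp are needed for the neuroendocrine neurons of the paraventricular and supraoptic nuclei. Tbx3, a T-box repressor, and Isl1, a LIM homeodomain factor, act in neurons of the arcuate nucleus, among them those that make proopiomelanocortin. Nkx2-1, Six3 and Six6 are homeodomain factors that pattern the ventral forebrain, and Sox14 is a repressor of the SoxB family. Several of these genes also work elsewhere. Nr5a1 drives the steroidogenic genes of the adrenal cortex and the gonads and is active in pituitary gonadotropes, and Tbx3 is active in many tissues outside the brain.

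On the log2 scale of the RMA values, array medians lay between 8.28 and 8.34. Pearson's r across probe sets was 0.992 to 0.997 within a pool and 0.986 to 0.996 between pools, and probe sets are not independent replicates. The third ASP+CGP array and the third CON array deviated most from their pool's mean (SD over genes 0.0996 and 0.0903), while the 10 others ranged from 0.0490 to 0.0701. The median SD of a member over the 3 arrays of a pool was 0.0547, with a range of 0.00703 to 0.163. Precision is limited by how few arrays and pools there were.

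Of the 10 genes, Tbx3 and Nr5a1 were upregulated in the ASP pool, and the other 8 were not differentially expressed in any comparison between pools. To be called, a gene needed an adjusted p (limma, Benjamini-Hochberg) under 0.05 together with a change of over 1.4-fold, or 0.49 on the log2 scale. In ASP vs CON, 2 of the 10 members were called higher and 0 lower, against 1.02% of all genes called higher. No member was called in CGP vs CON or in ASP+CGP vs CON, where 0.111% and 0.18% of all genes were called in either direction. At an unadjusted p under 0.05 there were 5 members in ASP vs CON, 3 in CGP vs CON and 6 in ASP+CGP vs CON, against 16.9%, 11.6% and 15.4% of all genes. As each group is bulk tissue, a change in the number of cells of a type and a change in RNA per cell cannot be told apart. The plot of the signals on each array shows the ASP arrays of Tbx3 and Nr5a1 apart from all others.

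**Figure D1:**
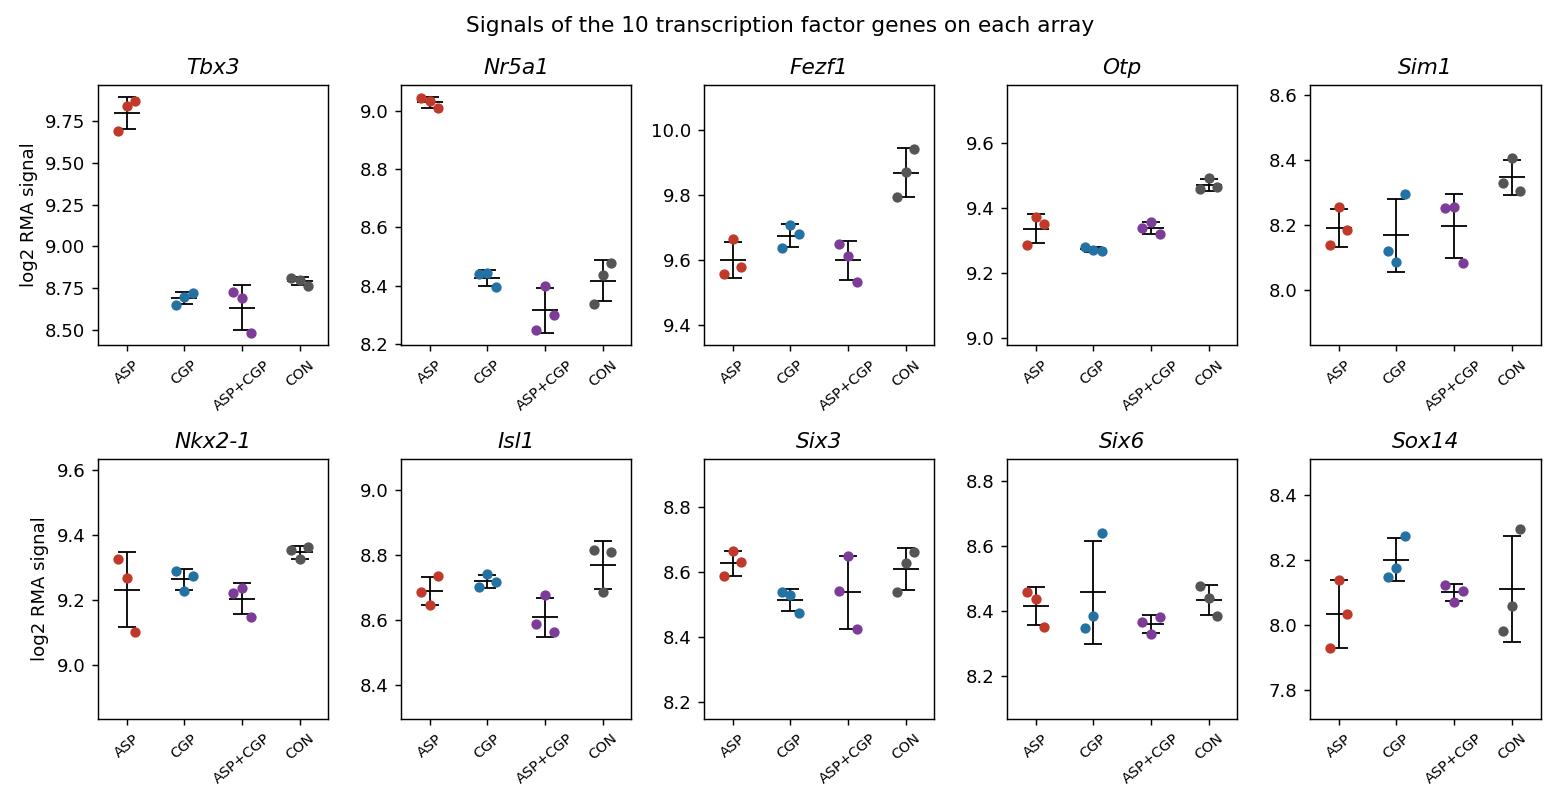
Signals (log2 RMA, vertical axis) of the 10 genes on the 3 arrays (points) of each pool (horizontal axis: ASP, CGP, ASP+CGP, CON), with the mean and SD of the 3 arrays in black and a vertical axis of its own for each gene. The ASP arrays of Tbx3 lie between 9.69 and 9.87 and those of Nr5a1 between 9.01 and 9.05, above every other array of the same gene, while no other gene has a pool as far from the rest.

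Tbx3 had signals of 9.69, 9.84 and 9.87 in ASP, 8.65, 8.70 and 8.72 in CGP, 8.73, 8.69 and 8.48 in ASP+CGP and 8.81, 8.80 and 8.76 in CON. All ASP arrays were higher than all 9 others, with no overlap, and the lowest signal was that of the third ASP+CGP array. The level was 2.01-fold higher in ASP than in CON, a log2 fold change of 1.01 ± 0.06 (SE) with an adjusted p of 1.33e-07 in limma. In the order of the means, ASP was followed by CON, CGP and ASP+CGP, and the neighbours CON and CGP (adjusted p = 0.570) and CGP and ASP+CGP (adjusted p = 0.719) did not differ by the test. In GRCm38.p6, the build of all positions given here, Tbx3 spans chr5:119670534-119684724.

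Nr5a1 had signals of 9.05, 9.03 and 9.01 in ASP, 8.44, 8.44 and 8.40 in CGP, 8.25, 8.40 and 8.30 in ASP+CGP and 8.34, 8.44 and 8.48 in CON. Again the ASP arrays stood above the rest, and the arrays of the remaining pools overlapped. Nr5a1 was upregulated 1.53-fold in ASP vs CON, with a log2 fold change of 0.61 ± 0.05 and an adjusted p of 1.64e-06 in limma. The means of CGP (8.43 ± 0.03), ASP+CGP (8.32 ± 0.08) and CON (8.42 ± 0.07; SD, n = 3 arrays each) lay below that of ASP (9.03 ± 0.02), and none of the 3 differed from its neighbour in the order by the test. The gene lies at chr2:38692656-38714542.

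For a single gene, the smallest two-sided p of an exact permutation test of 3 arrays against 3 is 0.1, so that the calls rest on the fit across all genes.

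The same 2 genes differed when the ASP pool was set against the pools that had received CGP 39551. In ASP vs ASP+CGP, Tbx3 was 2.25-fold higher (log2 fold change 1.17 ± 0.06, adjusted p = 2.01e-08) and Nr5a1 1.64-fold higher (0.71 ± 0.05, adjusted p = 2.66e-07), 2 of 10 members against 1.24% of all genes called higher. In ASP vs CGP, Tbx3 was 2.16-fold and Nr5a1 1.52-fold higher, against 0.943% of all genes. These comparisons share the ASP arrays. In ASP+CGP vs CGP no member was called, where 0.163% of all genes were, and 2 members had an unadjusted p under 0.05, against 14.2% of all genes. There the log2 fold change was -0.06 ± 0.06 for Tbx3 and -0.11 ± 0.05 for Nr5a1. The interaction, which takes the difference of ASP and CON from the difference of ASP+CGP and CGP, was -1.07 ± 0.09 for Tbx3 (adjusted p = 4.25e-06) and -0.72 ± 0.07 for Nr5a1 (adjusted p = 1.61e-05). A negative value means that the log2 fold change of ASP+CGP vs CGP lay below that of ASP vs CON. For the interaction, 2 of the 10 members and 1.35% of all genes were called lower.

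**Figure D2:**
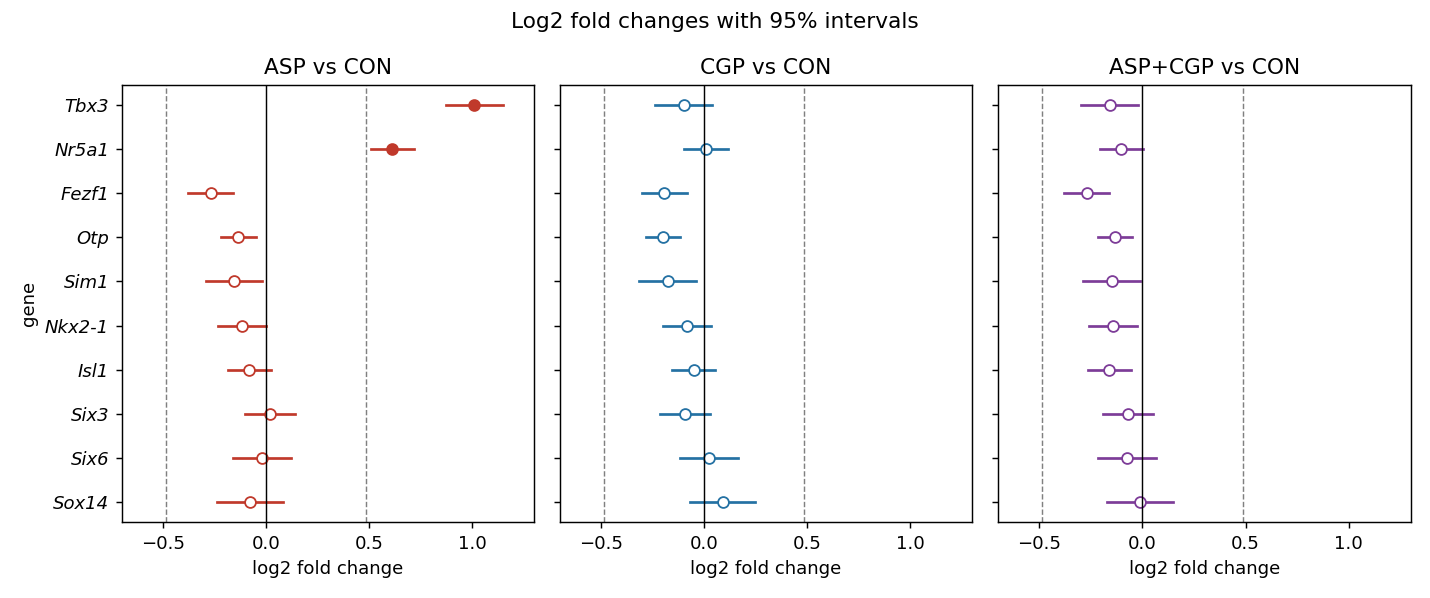
Log2 fold changes (horizontal axis) of the 10 genes (rows) in the 3 comparisons with CON, with 95% intervals of the limma fit as lines, filled points for called genes, and dashed lines at the fold threshold of 1.4 in either direction. Only Tbx3 and Nr5a1 in ASP vs CON have filled points, and the intervals of the other genes stay inside the dashed lines.

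Marker genes of tissues outside the hypothalamus moved with Tbx3 and Nr5a1 in the ASP pool. Of 12 tested genes of an adrenal cortex list, 10 were called higher in ASP vs CON and 0 in CGP vs CON or ASP+CGP vs CON. The list's median log2 fold change in ASP vs CON was 2.94, against -0.01 over all genes, and was led by Cyp11b1 (6.04), Cyp21a1 (5.86), Hsd3b1 (4.98) and Cyp11a1 (4.90), enzymes of steroid synthesis. The summed signal of the list on the linear scale was 21434 to 21794 in ASP, 2409 to 2426 in CGP, 2244 to 2355 in ASP+CGP and 2366 to 2440 in CON. Only the ASP pool stood apart, and 2 of the 12 genes had a mean below 6 in each of the other pools. The 2 genes of the list that were not called in ASP vs CON were Nr0b1 (0.11 ± 0.07), which encodes a corepressor of Nr5a1 and is expressed in the ventromedial nucleus as well, and Inha (0.14 ± 0.05). Of an adipose list, 9 of 10 tested genes were called higher, of an exocrine pancreas list 8 of 10, and of an adrenal medulla list 3 of 7. By adjusted p alone in ASP vs CON, 10 adipose, 8 exocrine pancreas and 7 adrenal medulla genes were higher and 0 lower. Of all genes, 2.92% were higher by that rule. None were called of the pancreatic islet list (7 tested), the gonad list (5 tested), the reference gene list (8 tested) or the tanycyte and ependyma list (11 tested), the last of which holds cells of the third ventricle's lining where Tbx3 is also expressed. According to the methods of the study, adrenal glands were taken from the same mice. The part of these other tissues in the levels of Tbx3 and Nr5a1 was not tested.

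Pituitary genes followed another order. Of 13 tested pituitary genes, 7 were called higher in ASP vs CON and 7 in CGP vs CON, while 6 were called lower in ASP+CGP vs CON. Their summed linear signal was 37877 to 38090 in ASP, 33738 to 34311 in CGP, 5148 to 5776 in ASP+CGP and 18899 to 19858 in CON. In CGP vs CON, where the gonadotropin genes Lhb and Fshb were higher by 1.10 ± 0.11 and 1.08 ± 0.07 on the log2 scale, Nr5a1 had a log2 fold change of 0.01 ± 0.05 and Tbx3 one of -0.10 ± 0.06. In ASP+CGP vs CON, with Lhb at -0.88 ± 0.11 and Fshb at -0.82 ± 0.07, the values were -0.10 ± 0.05 for Nr5a1 and -0.16 ± 0.06 for Tbx3. Lhb and Fshb were chosen after their values were seen, as the products of the pituitary cells that express Nr5a1. The part of pituitary tissue in the levels of Nr5a1 and Tbx3 was not tested.

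**Figure D3:**
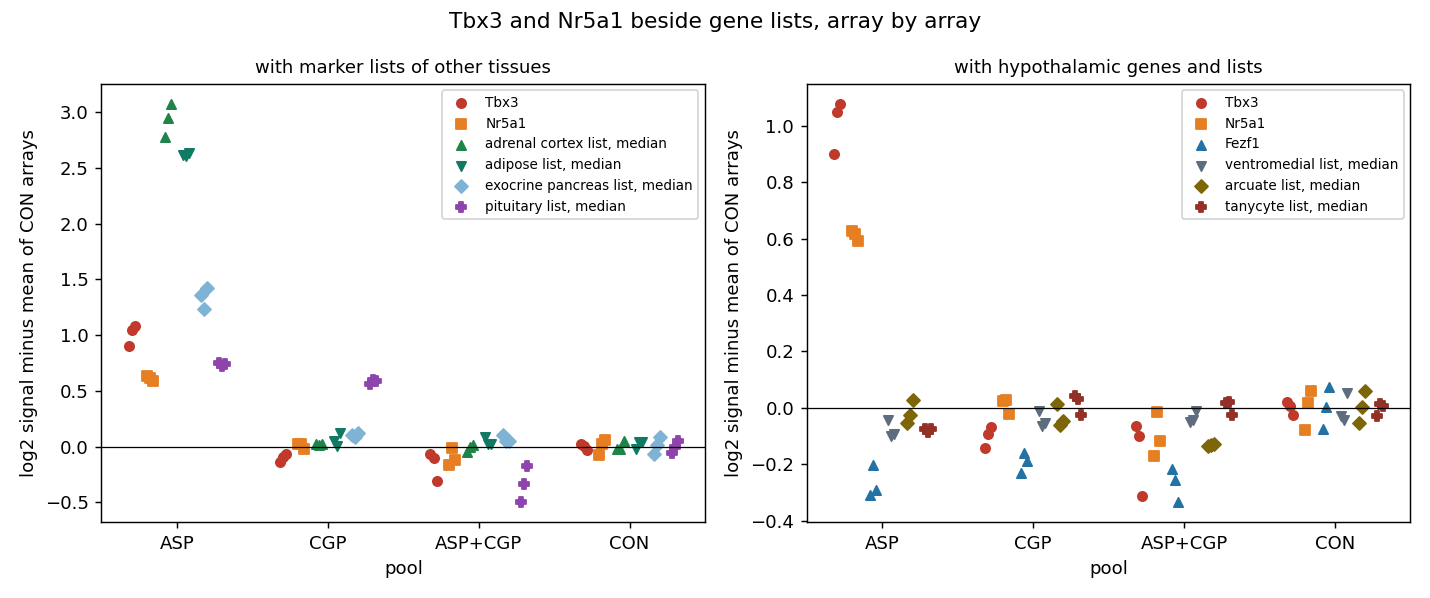
Tbx3 and Nr5a1 beside gene lists on each array, as the log2 signal minus the mean of the CON arrays (vertical axis) in the 4 pools (horizontal axis), with the median over the tested genes of each list and 3 points per pool. On the left, the adrenal cortex and adipose lists reach 2.61 to 3.08 in ASP only, while the pituitary list is raised in ASP and CGP alike. On the right, Fezf1 and the ventromedial, arcuate and tanycyte lists stay close to or below 0 in ASP.

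The genes whose pattern over the 12 arrays was most like that of the 2 upregulated members were named by Pearson's r. For Tbx3 they were Igfbp7 (r = 0.992), Scarb1 (0.989), which encodes the receptor for high density lipoprotein and belongs to the adrenal cortex list, and Adh1 (0.989), an alcohol dehydrogenase. Nr5a1 was most like Pcolce (0.994), whose product enhances procollagen processing, Emp3 (0.990) and Dab2 (0.989), an endocytic adaptor. All 6 were higher in ASP vs CON, by 0.73 (Igfbp7) to 3.32 (Adh1) on the log2 scale. Igfbp7 signals were 11.39, 11.43 and 11.43 in ASP, 10.65, 10.72 and 10.61 in CGP, 10.60, 10.59 and 10.51 in ASP+CGP and 10.70, 10.69 and 10.65 in CON. As with Tbx3, the ASP arrays stood alone at the top, and the ASP+CGP pool had the lowest mean. In all, 244 genes had r above 0.9 with Tbx3 and 258 with Nr5a1. The coefficients are a description over 12 arrays that share 4 pools, and the distance of the 3 ASP arrays from the others enters all of them.

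Fezf1, the other ventromedial regulator among the members, lay on the other side of CON from Nr5a1 in the ASP pool. Its signals were 9.56, 9.67 and 9.58 in ASP, 9.64, 9.71 and 9.68 in CGP, 9.65, 9.61 and 9.53 in ASP+CGP and 9.79, 9.87 and 9.94 in CON. The 9 arrays of treated pools were all lower than the 3 CON arrays. The log2 fold change against CON was -0.27 ± 0.05 in ASP (adjusted p = 0.00616), -0.19 ± 0.05 in CGP (0.137) and -0.27 ± 0.05 in ASP+CGP (0.0143). By adjusted p alone, with no fold threshold, Fezf1 was lower in ASP, where 1.16% of all genes were lower by that rule. In ASP+CGP, where 0.919% of all genes were, it passed in the fit of all 12 arrays. Fezf1 did not reach the fold threshold in either. Fezf1 spans chr6:23245044-23250936. In ASP+CGP vs CON the adjusted p was 0.0599 without the second CON array, 0.157 in a fit of the ASP+CGP and CON arrays alone and 0.0829 in that fit with the replicate number as a block.

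Otp was lowest in the CGP pool. It had signals of 9.29, 9.37 and 9.35 in ASP, 9.28, 9.27 and 9.27 in CGP, 9.34, 9.36 and 9.32 in ASP+CGP and 9.46, 9.49 and 9.46 in CON. No treated array reached a CON array, and the CGP arrays lay below all others. The gene spans chr13:94875636-94885125. The log2 fold change was -0.20 ± 0.04 in CGP vs CON (adjusted p = 0.0316, where 0.14% of all genes were lower by adjusted p alone), -0.13 ± 0.04 in ASP vs CON (0.0720) and -0.13 ± 0.04 in ASP+CGP vs CON (0.111). The adjusted p of CGP vs CON was over 0.05 without the first (0.1001) or the second (0.116) CON array, without any of the CGP arrays (0.129, 0.121 and 0.163), without the third ASP array (0.0541) and without the first ASP+CGP array (0.0554).

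Sim1, which acts together with Otp in the paraventricular nucleus, had signals of 8.14, 8.26 and 8.18 in ASP, 8.12, 8.09 and 8.30 in CGP, 8.25, 8.26 and 8.08 in ASP+CGP and 8.33, 8.41 and 8.31 in CON. Here too every treated array was below every CON array, though the third CGP array (8.30) came close to the third CON array (8.31). Sim1 spans chr10:50894698-50989156. The log2 fold change was -0.15 ± 0.06 in ASP (adjusted p = 0.231), -0.18 ± 0.06 in CGP (0.281) and -0.15 ± 0.06 in ASP+CGP (0.281).

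Fezf1, Otp and Sim1 were thus the 3 of 10 members for which all 9 treated arrays lay below all 3 CON arrays, a pattern found in 1.48% of all genes. Counted for each comparison, the arrays did not overlap and were lower than CON for 3 members in ASP, 5 in CGP and 7 in ASP+CGP, against 13.9%, 7.39% and 10.2% of all genes. The members' median log2 fold change was -0.08 in ASP vs CON, -0.09 in CGP vs CON and -0.14 in ASP+CGP vs CON, against -0.01, 0.01 and -0.00 over all genes, and 7, 7 and 10 of the 10 were below 0. The 3 comparisons share the CON arrays. Thalamic and habenular genes, which lie next to the dissected block, were on the opposite side. The median of that list of 12 genes was 0.18 in ASP vs CON, 0.36 in CGP vs CON and 0.33 in ASP+CGP vs CON, with 1, 3 and 1 genes called higher. By adjusted p alone, 6, 10 and 9 of the 12 were higher and 0 lower. Of all genes, 2.92%, 0.489% and 0.826% were higher by that rule. For a list of 10 lateral hypothalamus and other peptide genes the medians were -0.14, -0.16 and -0.11, with 0 genes called and 3, 1 and 2 lower by adjusted p alone. By the same rule 1.16%, 0.14% and 0.919% of all genes were lower. The summed linear signal of the thalamic and habenular list was 15227 to 15305 in ASP, 16793 to 16987 in CGP, 16494 to 16641 in ASP+CGP and 13946 to 14430 in CON. The part of neighbouring tissue in the levels of Fezf1, Otp and Sim1 was not tested.

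Because these 3 genes shared the low side in the treated pools, the 250 bases before their start sites are shown, from RefSeq promoters of GRCm38.p6. The promoter table held 8 of the 10 members, all but Tbx3 and Nr5a1. The windows are chr6:23248265-23248514 on the minus strand for Fezf1, chr13:94875386-94875635 on the plus strand for Otp and chr10:50895401-50895650 on the plus strand for Sim1. For Fezf1 and Sim1 the start site used lies inside the annotated span of the gene, and for Otp at its first base. Capitals mark the letters CCAAT on either strand, a common promoter element.
Fezf1: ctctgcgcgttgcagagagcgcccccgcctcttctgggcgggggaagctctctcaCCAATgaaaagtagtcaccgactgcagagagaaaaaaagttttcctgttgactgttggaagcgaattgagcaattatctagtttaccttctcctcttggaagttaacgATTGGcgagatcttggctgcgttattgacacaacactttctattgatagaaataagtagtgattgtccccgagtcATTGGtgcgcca
Otp: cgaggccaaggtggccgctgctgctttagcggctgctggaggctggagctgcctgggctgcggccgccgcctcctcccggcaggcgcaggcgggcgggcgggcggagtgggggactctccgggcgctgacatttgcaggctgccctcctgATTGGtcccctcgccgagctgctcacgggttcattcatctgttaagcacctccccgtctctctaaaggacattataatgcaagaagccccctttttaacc
Sim1: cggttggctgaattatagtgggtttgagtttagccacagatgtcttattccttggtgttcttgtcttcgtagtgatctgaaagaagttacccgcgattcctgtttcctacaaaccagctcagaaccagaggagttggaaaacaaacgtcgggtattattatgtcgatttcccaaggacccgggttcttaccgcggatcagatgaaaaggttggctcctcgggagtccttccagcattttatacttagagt
Fezf1 had 3 matches, Otp 1 and Sim1 0. Of the 8 members covered, 6 held CCAAT in this window, and so did 37.5% of the 27025 genes with a promoter sequence. The letters AGGTCA, the half-site that Nr5a1 recognizes, were in 0 of the 8 members' windows on either strand. They were in 4 of 9 adrenal cortex genes (Cyp11a1, Akr1b7, Nr0b1 and Inha) and in 15.8% of the 27025 genes. Of these 4, Cyp11a1 was called in ASP vs CON, Nr0b1 and Inha were not, and Akr1b7 was not among the genes tested. The other 7 of the 16 listed genes, Cyp11b1, Cyp21a1 and Star among them, were not searched. The T-box half-site AGGTGTGA was in 0 of the 8 members, in 1 of the 9 adrenal cortex genes (Cyp11a1) and in 1.3% of the 27025 genes. For Cyp11a1, which encodes the side chain cleavage enzyme that starts steroid synthesis, the 30 bases around the Nr5a1 half-site, in capitals, are shown from chr9:58014912-58014941 on the plus strand.
Cyp11a1: gaggaaggggggAGGTCAccgctccatcag
These matches are descriptions of letters and not binding sites.

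The remaining 5 members varied little. Nkx2-1, a patterning factor of the ventral hypothalamus, had signals of 9.32, 9.27 and 9.10 in ASP, 9.29, 9.23 and 9.27 in CGP, 9.22, 9.24 and 9.15 in ASP+CGP and 9.35, 9.32 and 9.36 in CON. The CGP and ASP+CGP arrays did not overlap the CON arrays, and the third ASP array was the lowest of all. Its log2 fold changes against CON were -0.12, -0.08 and -0.14 in ASP, CGP and ASP+CGP, with adjusted p-values of 0.295, 0.579 and 0.220. Isl1 had signals of 8.69, 8.65 and 8.74 in ASP, 8.70, 8.74 and 8.72 in CGP, 8.59, 8.68 and 8.56 in ASP+CGP and 8.82, 8.69 and 8.81 in CON. The ASP+CGP arrays of Isl1 were below all CON arrays (log2 fold change -0.16 ± 0.05, adjusted p = 0.125), and the other pools overlapped CON.

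Six3 ranged between 8.43 and 8.66 over the 12 arrays, with log2 fold changes against CON of 0.02, -0.09 and -0.07 in ASP, CGP and ASP+CGP. Six6, its close relative that also acts in the pituitary, averaged 8.42 ± 0.06 in ASP, 8.46 ± 0.16 in CGP, 8.36 ± 0.03 in ASP+CGP and 8.43 ± 0.05 in CON (SD, n = 3 arrays each), with the third CGP array (8.64) above the rest. Sox14 averaged 8.03 ± 0.11 in ASP, 8.20 ± 0.07 in CGP, 8.10 ± 0.03 in ASP+CGP and 8.11 ± 0.16 in CON, and all 4 pools overlapped in pairs of neighbours. Its CGP arrays lay above all ASP and all ASP+CGP arrays. The log2 fold change of Sox14 in ASP vs CGP was -0.17 ± 0.07 (adjusted p = 0.292). Over the 8 members other than Tbx3 and Nr5a1 and the 6 comparisons between pools, log2 fold changes ran from -0.27 to 0.11, and the 95% intervals from -0.38 to 0.25. A change as large as the fold threshold lay outside all 48 of these intervals, which cover the spread between arrays only. The last 5 of these genes lie at chr12:56531935-56536908 (Nkx2-1), chr13:116298270-116309688 (Isl1), chr17:85613608-85626191 (Six3), chr12:72939882-72944899 (Six6) and chr9:99874106-99876170 (Sox14).

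A wider list of 38 hypothalamic transcription factors gave few calls. Of the 32 that were tested, none were called in ASP vs CON or in ASP+CGP vs CON. By adjusted p alone, 4 were higher and 2 lower in ASP vs CON, 2 higher and 1 lower in CGP vs CON, and 3 higher and 1 lower in ASP+CGP vs CON. Of all genes, 2.92%, 0.489% and 0.826% were higher by that rule in the same order of comparisons, and 1.16%, 0.14% and 0.919% were lower. In CGP vs CON, Lhx9 was upregulated 1.49-fold (log2 fold change 0.58 ± 0.05, adjusted p = 3.34e-05). Lhx9, a LIM homeodomain factor of the thalamus and of hypothalamic neurons, had signals of 8.49, 8.58 and 8.52 in ASP, 8.87, 8.90 and 8.90 in CGP, 8.76, 8.80 and 8.63 in ASP+CGP and 8.34, 8.28 and 8.31 in CON. All treated arrays lay above the CON arrays, with the CGP arrays on top, the order of the thalamus and habenula list given above, whose part in the level of Lhx9 was not tested. Meis2 was called in ASP vs CGP, with signals of 10.71, 10.72 and 10.70 in ASP and 10.14, 10.13 and 10.20 in CGP (log2 fold change 0.55 ± 0.05, adjusted p = 1.19e-05). Meis2 in ASP+CGP (10.37 to 10.58) and in CON (10.34 to 10.43) lay between these. The median log2 fold change of the wider list was -0.00 in ASP vs CON, -0.01 in CGP vs CON and -0.02 in ASP+CGP vs CON.

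The upregulation of Nr5a1 was not accompanied by calls among other genes of the ventromedial nucleus. Of 12 such genes, 0 were called in ASP vs CON, with a median log2 fold change of -0.05. By adjusted p alone, 2 were lower and 0 higher, against 1.16% of all genes lower and 2.92% higher. Those 2, named after their values were seen, were Adcyap1 (-0.32 ± 0.05, adjusted p = 0.00259), which encodes the peptide PACAP, and Gda (-0.29 ± 0.04, adjusted p = 0.000300), a guanine deaminase. Both were also below CON in the other pools. Adcyap1 was at -0.27 ± 0.05 in CGP vs CON (adjusted p = 0.0391) and -0.20 ± 0.05 in ASP+CGP vs CON (0.0795). Gda was at -0.18 ± 0.04 (0.0516) and -0.08 ± 0.04 (0.363) in the same order. The Adcyap1 signals were 10.16, 10.10 and 10.08 in ASP and 10.36, 10.37 and 10.56 in CON, without overlap. Tac1, which encodes substance P, was the 1 gene of the list called for the interaction (0.49 ± 0.11, adjusted p = 0.0193).

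Genes of the arcuate nucleus, the site of Tbx3 and Isl1, were more variable. Of 11 tested genes, 3 were called higher in ASP vs CON, namely Pomc (0.91 ± 0.04), which encodes the melanocortin precursor, Th (0.66 ± 0.07), the rate-limiting enzyme of catecholamine synthesis, and Npy (0.54 ± 0.09), an appetite-stimulating peptide. By adjusted p alone, 3 were higher and 1 lower in ASP vs CON, against 2.92% and 1.16% of all genes. The lower one, named after its value was seen, was Cartpt (-0.32 ± 0.06, adjusted p = 0.00852). Pomc is also on the pituitary list, and Th is also expressed in the adrenal medulla. Npy was at -0.30 ± 0.09 in CGP vs CON (adjusted p = 0.183) and -0.42 ± 0.09 in ASP+CGP vs CON (0.0232). The part of tissues outside the arcuate nucleus in the levels of Pomc, Th and Npy was not tested. Pomc was higher in CGP vs CON (0.59 ± 0.04) and lower in ASP+CGP vs CON (-1.67 ± 0.04). The list's median was -0.02, -0.03 and -0.17 in ASP, CGP and ASP+CGP against CON.

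Among 9 genes of the paraventricular and supraoptic nuclei, where Otp and Sim1 act, Avp, the vasopressin gene, was called lower in ASP vs CON (-0.50 ± 0.04, adjusted p = 4.57e-06) and in ASP+CGP vs CON (-0.55 ± 0.04, adjusted p = 1.35e-05). Its signals were 10.67, 10.80 and 10.82 in ASP, 10.91, 10.92 and 10.89 in CGP, 10.70, 10.71 and 10.72 in ASP+CGP and 11.26, 11.25 and 11.26 in CON. As for Otp, each treated array was below each CON array, but the CGP pool, lowest for Otp, was the nearest to CON for Avp. In each of the 3 comparisons with CON, 3 of the 9 genes were lower by adjusted p alone and 0 higher. Of all genes, 1.16%, 0.14% and 0.919% were lower by that rule in ASP, CGP and ASP+CGP. The median of the list was -0.12 in ASP vs CON, -0.01 in CGP vs CON and -0.12 in ASP+CGP vs CON.

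**Figure D4:**
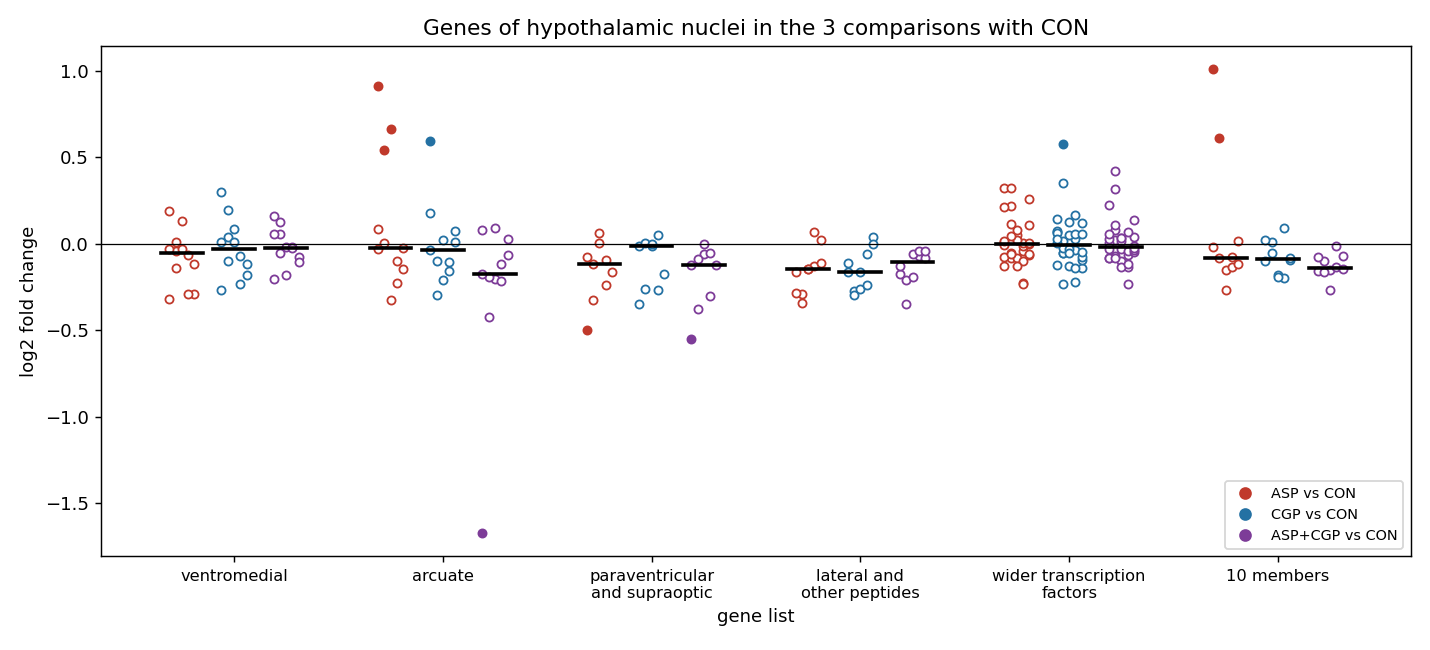
Log2 fold changes against CON (vertical axis) of the tested genes of 5 hypothalamic lists and of the 10 members (horizontal axis) in ASP, CGP and ASP+CGP (colours), each point a gene, filled where called, with the list's median as a black bar. Filled points are few, the highest of the members being Tbx3 (1.01) and the lowest of all Pomc in ASP+CGP vs CON (-1.67), and the medians lie between -0.17 and -0.00.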

How the data were processed

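RNA from dissected hypothalamus was pooled per group and hybridized to Affymetrix Mouse Gene 1.0 ST arrays, 3 per pool. For each probe set the authors deposited a log2 signal, made in Partek by RMA (background correction, quantile normalization over arrays, median polish). Quantile normalization removes changes shared by most genes, and background within the signals understates changes of dim genes. The methods also state a filter on values below log 6. In the files, 2496 of 29149 probe sets fell below 6 on 1 array or more.

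Gene names came from the platform annotation, which gave 19019 probe sets 1 symbol, 1197 several and 8933 none. Of those with 1 symbol, 18810 reached a signal of 6 on 3 arrays or more and were used, and for each gene the probe set with the highest mean was used (17186 genes). Groups came from the sample labels. Contrasts were fitted with limma 3.58.1 in R 4.3.3 (lmFit, eBayes) on all 12 arrays, with 8 residual and 5.43 prior degrees of freedom, and adjusted over all genes within a contrast by the Benjamini-Hochberg method. Genes were called at an adjusted p under 0.05 and a fold change over 1.4. The steps were tested on simulated data. Figures were drawn with matplotlib 3.10.9 in Python 3.11.15.

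The members and gene lists were chosen with earlier results of these data known. Text names were all 10 members, up to 4 called genes of each other list with the largest change, every called gene of the wider transcription factor list, and the 3 genes most like each called member. Exceptions are marked where they occur. Alternatives were other filters, probe set rules, normalizations, tests, adjustments, fold thresholds, a replicate block and leaving out each array. Deviations from the pool mean of same-numbered ASP+CGP and CON arrays correlated at 0.170, 0.256 and 0.541 across genes, although the labels name no shared batch. In the other comparisons the correlations ran from -0.106 to 0.191. The main fit took no arrays as paired, and the replicate number entered only as a block in the alternatives. Promoter sequences are from RefSeq (GRCm38.p6). The adrenal arrays of the study were not analysed here.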

Additional observations from a re-analysis of the deposited data

Results flagged for a closer look

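For several genes the difference between a pool with aspartame and a pool without it was not the same with and without CGP 39551, by the interaction in limma, (ASP+CGP minus CGP) minus (ASP minus CON). Among the members these were Tbx3, at -1.07 ± 0.09 (adjusted p = 4.25e-06), and Nr5a1, at -0.72 ± 0.07 (adjusted p = 1.61e-05). The genes most like them gave -0.82 (Igfbp7), -2.41 (Scarb1), -3.54 (Adh1), -1.90 (Pcolce), -2.07 (Emp3) and -0.92 (Dab2). The adrenal cortex genes gave -5.97 (Cyp11b1), -5.83 (Cyp21a1), -4.99 (Hsd3b1) and -4.85 (Cyp11a1). Among genes of hypothalamic nuclei, the interaction was -3.17 for Pomc, -0.67 for Npy, -0.59 for Th and 0.49 for Tac1, the last being the 1 positive value here. For Pomc the log2 fold change was 0.91 in ASP vs CON and -2.26 in ASP+CGP vs CGP, so that its direction was reversed. These genes were picked partly for their ASP vs CON values, and the interaction uses the same ASP and CON arrays.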

How the results depend on the processing

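Across all alternatives run, including a fit without the third ASP+CGP and the third CON array (chosen after seeing the data), Tbx3 and Nr5a1 stayed called wherever they were called. The log2 fold change in ASP vs CON ran from 0.97 to 1.06 for Tbx3 and from 0.57 to 0.64 for Nr5a1. Of 1820 member values, 1815 kept their side of the threshold and 5 gained a call, all 5 with another fold threshold. Fezf1 joined in ASP vs CON under both other thresholds, making 3 members. Without a fold threshold 1 member was called in CGP vs CON (Otp) and 1 in ASP+CGP vs CON (Fezf1), and over 1.2-fold 1 in ASP+CGP vs CON (Fezf1). Uncalled values changed sign in 49 cases, with a size of at most 0.08. The replicate block on all 12 arrays left 2 members called in ASP vs CON and 0 in ASP+CGP vs CON, and changed no other member call. For the pairing of ASP+CGP and CON alone, the replicate block (chosen after seeing the data) gave Fezf1 an adjusted p of 0.0829. Fitting only the 2 groups compared gave 0.157 for Fezf1 in ASP+CGP vs CON and 0.0986 for Otp in CGP vs CON. Without moderation, Otp had adjusted p-values of 0.0118 in ASP vs CON and 0.0248 in ASP+CGP vs CON.

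Without a fold threshold and over 1.2-fold, all-gene calls were 702 and 425 in ASP vs CON (180 over 1.4-fold), 108 and 84 in CGP vs CON (19), 300 and 158 in ASP+CGP vs CON (31), 1189 and 599 in ASP vs ASP+CGP (219), 168 and 124 in ASP+CGP vs CGP (28), 587 and 380 in ASP vs CGP (162), and 690 and 644 for the interaction (257).

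Each group being 1 pool, no alternative measured the variation between mice.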
